A study of Homo sapiens with 4 samples.

Results

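CXCL5, CXCL6, CXCL8 (interleukin-8) and CXCL16 are 4 chemokine genes, followed here across 4 arrays of human prostate cancer cells. The members are the probes annotated to these 4 genes, with 1 probe each, out of 14006 named genes. Gene expression was measured on Affymetrix whole-transcript arrays from total RNA, with 1 array per culture. PC3-H and PC3-L were isolated with the antibody IIH6C4 from PC3, a prostate cancer line of bone-metastatic origin that does not need androgen, and are labelled high and low for the laminin-binding O-glycan that this antibody recognises. LNCaP, which came from a lymph node metastasis and depends on androgen, is labelled high for the glycan. LNCaP-AI carries the label of an androgen-independent derivative of LNCaP, obtained by culture in charcoal-stripped serum; it is labelled low for the glycan, and its description adds conditioned medium of perineural cells. Cells with the high glycan label are listed as poorly motile and invasive, and those with the low label as highly so. All cultures are listed as grown in RPMI1640 with fetal bovine serum and antibiotics. The free-text descriptions name the glycan levels of PC3-H and PC3-L the other way round and call LNCaP androgen-independent; the titles, source names and characteristics were followed. Each group is a culture measured once, so no value has a replicate error, and a difference between arrays has no replicate check. In bulk RNA, fewer cells of a type and less RNA per cell cannot be told apart.

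Chemokines are small secreted proteins that guide leukocytes. CXCL5, CXCL6 and CXCL8 carry the motif Glu-Leu-Arg ahead of their paired cysteines, act on the receptors CXCR1 and CXCR2, attract neutrophils and promote vessel growth; their genes lie in a cluster on chromosome 4 and are known targets of the transcription factor NF-kB. CXCL16, on chromosome 17, is built differently: it is made as a transmembrane protein, can be released by the proteases ADAM10 and ADAM17, and binds CXCR6. PC3 cells are known for secreting CXCL8.

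The arrays were first checked against their line labels. For KLK3, the gene of prostate-specific antigen, LNCaP had an intensity of 1781, while PC3-H had 59.0, PC3-L had 63.4 and LNCaP-AI had 61.2. Of 6 PC3 line markers 5 were past 2-fold higher on the LNCaP-AI-labelled array than on LNCaP, and of 5 LNCaP line markers 5 were past 2-fold lower. LNCaP-AI thus goes against its line label at these markers, and its array is named by its label only. Its log2 values had r = 0.961 against PC3-L, 0.926 against PC3-H and 0.885 against LNCaP, across all probes, which are not independent replicates. PC3-L had r = 0.899 against PC3-H, and PC3-H had r = 0.900 against LNCaP, so r did not follow the line labels. Leukocyte markers were mostly dim: of 9 measured neutrophil and monocyte markers, CD68, a lysosomal gene that is not specific to leukocytes, was between 102 and 630, and the other 8 lay between 22.5 (S100A12) and 65.8 (FCN1). The summed level of these 9 was 582 on PC3-H, 923 on PC3-L, 390 on LNCaP and 858 on the LNCaP-AI-labelled array. The differences in this sum followed CD68, which alone was 290, 630, 102 and 553 on these arrays in the same order.

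The promoters of the chromosome 4 members are shown because these 3 genes share a sequence element and differ in their values over the arrays. The 250 bases before the transcription start are given 5′ to 3′ on the coding strand, from RefSeq on GRCh38.p14, in lower case with the NF-kB-like element in capitals. They span chr4:73998678-73998927 on the minus strand for CXCL5, chr4:73836428-73836677 on the plus strand for CXCL6 and chr4:73740319-73740568 on the plus strand for CXCL8.
CXCL5: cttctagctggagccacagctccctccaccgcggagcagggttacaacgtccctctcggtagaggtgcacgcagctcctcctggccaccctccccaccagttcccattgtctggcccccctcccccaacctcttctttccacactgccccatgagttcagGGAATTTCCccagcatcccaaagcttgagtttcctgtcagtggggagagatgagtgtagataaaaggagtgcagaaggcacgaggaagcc
CXCL6: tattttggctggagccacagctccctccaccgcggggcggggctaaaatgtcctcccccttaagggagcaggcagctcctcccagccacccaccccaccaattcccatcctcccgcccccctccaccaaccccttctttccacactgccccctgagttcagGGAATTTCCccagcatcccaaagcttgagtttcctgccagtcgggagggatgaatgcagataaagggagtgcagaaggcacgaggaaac
CXCL8: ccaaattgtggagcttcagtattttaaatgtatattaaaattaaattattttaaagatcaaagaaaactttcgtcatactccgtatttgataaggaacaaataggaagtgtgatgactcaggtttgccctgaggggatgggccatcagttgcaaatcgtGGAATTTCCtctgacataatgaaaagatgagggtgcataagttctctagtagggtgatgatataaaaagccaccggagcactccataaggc

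The same 9 letters, GGAATTTCC, stood at nearly the same place in all 3 promoters, beginning 90 bases before the start in CXCL5, 89 in CXCL6 and 91 in CXCL8. The search used GGNANTTCC on both strands, where N is any base. It matched 1492 of 35116 promoters of the same length (4.25%), and 6 of the 8 listed promoters of the chemokine cluster on chromosome 4, namely CXCL1, CXCL2, CXCL3 and these 3. In an alignment of the promoters, CXCL5 and CXCL6 were identical at 214 of 251 columns (85.3%), and CXCL8 matched CXCL5 at 44.2% and CXCL6 at 42.4%. The AP-1 element TGANTCA, found in 6.57% of all promoters, was present in CXCL8 and in neither of the other two. The same held for the letters TTGCAA, which C/EBP factors can bind and which 4.73% of promoters held. A TATA element, TATAAA, was likewise found in CXCL8 alone of the 3, and in 10.7% of all promoters. These were searched on both strands and did not overlap each other or the NF-kB-like element. A match is a description of letters and no evidence of binding. The promoter of CXCL16 is not shown.

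CXCL5, a neutrophil attractant, was bright on PC3-H and dim elsewhere. Its intensity was 2454 on PC3-H, 30.7 on PC3-L, 33.2 on LNCaP and 34.2 on the LNCaP-AI-labelled array. On PC3-H that was 59.5 times the array median and above 99.8% of all probes, while the other 3 values were below the 40th percentile of their arrays, which lay between 33.6 and 34.8. CXCL5 was 77.5-fold lower on PC3-L than on PC3-H, a log2 difference of −6.28. No other gene among the 11135 past the filter was as far below PC3-H on PC3-L. The low values sit near the floor of the table, whose lowest value is 17.6, so this fold may be understated. Against LNCaP the PC3-H value was 71.8-fold higher. The order among PC3-L, LNCaP and the LNCaP-AI-labelled array spans 1.11-fold and cannot be read without replicates.

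CXCL6, the closest relative of CXCL5 among the members by promoter, followed another pattern. Its intensity was 151 on PC3-H, 203 on PC3-L, 28.8 on LNCaP and 157 on the LNCaP-AI-labelled array. It was thus dim on LNCaP and at similar levels on the other 3 arrays, which differed by at most 1.35-fold. The log2 difference of PC3-L from PC3-H was 0.43, inside the 2-fold limit, and that of the LNCaP-AI-labelled array from LNCaP was 2.41, or 5.31-fold higher. On PC3-L and on the LNCaP-AI-labelled array the CXCL6 probe was bright while the CXCL5 probe was at 30.7 and 34.2. Whether the CXCL6 probe also reads CXCL5 RNA on PC3-H was not tested, since probe sequences were not used here.

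CXCL8 was bright on both PC3 arrays. Its intensity was 302 on PC3-H, 497 on PC3-L, 22.3 on LNCaP and 46.9 on the LNCaP-AI-labelled array. PC3-L was 1.64-fold above PC3-H (log2 difference 0.72), inside the 2-fold limit, and PC3-L was 21.4-fold and PC3-H 13.0-fold above LNCaP. The array labelled LNCaP-AI was 2.05-fold above LNCaP (log2 difference 1.04). That call was not kept with a pseudocount of 16, where the log2 difference was 0.71. LNCaP-AI as labelled was 10.4-fold below PC3-L at CXCL8 (log2 difference −3.38), and no other of 10956 genes past the filter was farther below PC3-L on it; 1.95% of these genes were past 2-fold lower. In this gene it stood apart from the PC3 arrays, in contrast to CXCL6.

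CXCL16, the transmembrane chemokine, was lower on both arrays labelled low for the glycan by titles and source names. Its intensity was 251 on PC3-H, 43.2 on PC3-L, 156 on LNCaP and 57.7 on the LNCaP-AI-labelled array. The low-label arrays lay at 43.2 and 57.7 and the high-label arrays at 156 and 251. How many other genes separate the labels in this way was not counted. With the PC3 labels exchanged, as the descriptions have them, CXCL16 is instead higher on the low-label array of that pair (log2 difference 2.51). By titles and source names, CXCL16 was 5.69-fold lower on PC3-L than on PC3-H (log2 difference −2.51) and 2.68-fold lower on the LNCaP-AI-labelled array than on LNCaP (−1.42). Of the 11509 genes past the filter, 114 were past 2-fold lower in both pairs, CXCL16 among them. Epithelial genes moved with it: 5 of 8 were past 2-fold lower on PC3-L and 4 of 8 on the LNCaP-AI-labelled array, with 0 higher in either pair. The adhesion molecule EPCAM, for instance, was 667 on PC3-H, 30.1 on PC3-L, 314 on LNCaP and 33.3 on the LNCaP-AI-labelled array. KRT8, KRT18 and CLDN4 stayed inside 2-fold in both pairs, and KRT19 was past 2-fold lower in the PC3 pair alone. The part of epithelial genes in the CXCL16 values was not tested.

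**Figure D1:**
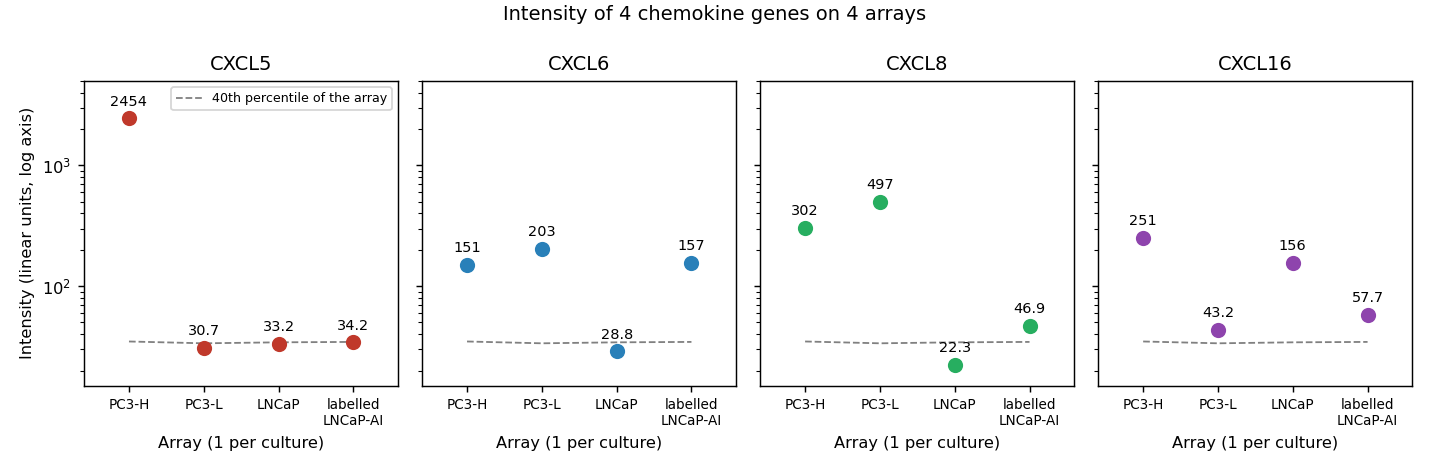
Intensity of CXCL5, CXCL6, CXCL8 and CXCL16 (log axis) on the 4 arrays, 1 point per array, with the 40th percentile of each array as a dashed line. CXCL5 stands out on PC3-H at 2454, CXCL6 is low on LNCaP at 28.8, CXCL8 is high on both PC3 arrays at 302 and 497, and CXCL16 is higher on PC3-H and LNCaP at 251 and 156.

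The design pairs PC3-L with PC3-H, which asks what goes with the low glycan label among PC3 cells. Of the 4 members, all past the filter, 2 were past 2-fold lower (CXCL5 and CXCL16) and 0 higher. Over all genes past the filter 12.3% were past 2-fold in either direction, 3.76% lower and 8.58% higher, around a median of −0.02 (log2). With a trend with gene length and density removed, 604 genes were higher and 510 lower in place of 955 and 419.

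The second pair sets the LNCaP-AI-labelled array against LNCaP and asks what goes with androgen independence and the low label. Of the 3 members past the filter, CXCL6 and CXCL8 were past 2-fold higher and CXCL16 lower; CXCL5 was below the filter on both arrays. Over all genes 10.6% were past 2-fold, 5.45% higher and 5.13% lower. Since the LNCaP-AI-labelled array goes against its line label, the same members were also set beside PC3-L against LNCaP. There CXCL6 was 6.86-fold and CXCL8 21.4-fold higher, and CXCL16 was 3.55-fold lower, where 11.7% of genes were past 2-fold. These comparisons share the LNCaP array.

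**Figure D2:**
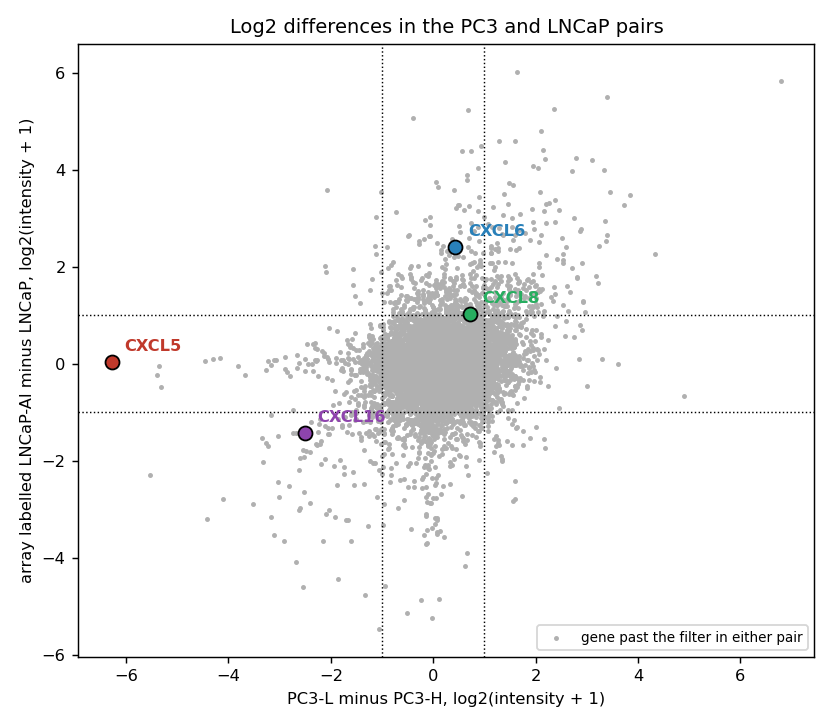
Log2 difference of each gene past the filter in either pair (grey points, 11509 genes), with PC3-L minus PC3-H on the horizontal axis and the LNCaP-AI-labelled array minus LNCaP on the vertical axis; dotted lines mark 2-fold. CXCL5 lies at −6.28 and 0.04, CXCL16 at −2.51 and −1.42, CXCL6 at 0.43 and 2.41, and CXCL8 at 0.72 and 1.04.

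Both pairs were also fitted together with limma, low against high glycan label, with the cell line as labelled as a covariate. One fit to all arrays left 1 residual degree of freedom. The covariate counts the LNCaP-AI-labelled array as LNCaP, although that array goes against its line label at the markers. The 2 pairs thus cannot be read as agreement between 2 lines, and errors and p-values hold only for the labels as given. In this fit CXCL16 had a log2 difference of −1.96 ± 0.36 (SE; 95% interval −2.93 to −0.998), was lower in 2 of 2 pairs, and had an unadjusted p of 0.0043 and an adjusted p of 0.267 in limma. CXCL8 (0.88 ± 0.26, limma adjusted p = 0.436) and CXCL6 (1.42 ± 0.54, limma adjusted p = 0.577) were higher in 2 of 2 pairs. CXCL5 had −3.12 ± 1.54 (limma adjusted p = 0.695). None of the 4 passed an adjusted p of 0.05, and neither did any other of the 11509 genes (0%). At an unadjusted p under 0.05 limma counted 1014 genes (8.81%), CXCL8 and CXCL16 among them. Without the line covariate the unadjusted limma p was 0.631 for CXCL8 and 0.0024 for CXCL16. Across the alternatives the adjusted limma p of CXCL16 lay between 0.191 and 0.998. The upper end came with the PC3 labels exchanged. There the log2 difference of CXCL16 turned to 0.54, that of CXCL5 turned to 3.16, and the unadjusted limma p of CXCL8 was 0.793.

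The receptors of these chemokines were dim throughout. CXCR1 lay between 25.0 and 32.1, CXCR2 between 25.0 and 29.4, and CXCR6 between 26.4 and 30.5, all below the 40th percentile of their arrays. Of 19 measured chemokine receptors, 0 of 8 past the filter were past 2-fold in the PC3 pair, where 12.3% of all genes were. In the LNCaP pair 2 of 9 were lower and 0 higher, against 5.13% and 5.45% of all genes. CXCR4, the receptor of CXCL12, was 84.9 on LNCaP and 32.9 on the LNCaP-AI-labelled array, and the scavenging receptor ACKR3 was 69.1 and 30.2. ACKR3 was inside 2-fold with a pseudocount of 16.

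Most other measured chemokine ligands were also dim. Of 37 listed ligands 32 were measured, and CXCL1 was not among them. Of these 32, 2 reached 100 on any array, the neutrophil attractant CXCL2 and the platelet chemokine PF4. Below 60 on every array were 28. In the PC3 pair 0 of 19 past the filter were past 2-fold, and in the LNCaP pair 0 of 17. The shares over all genes were 12.3% and 10.6%. CXCL2 was 160 on PC3-H, 152 on PC3-L, 61.9 on LNCaP and 102 on the LNCaP-AI-labelled array. CXCL3 was 71.9 on PC3-H, 56.9 on PC3-L, 31.2 on LNCaP and 29.1 on the LNCaP-AI-labelled array. Compared with LNCaP, PC3-H was past 2-fold higher at both, as it was at CXCL5, CXCL6 and CXCL8; 4.49% of genes past the filter were.

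The genes beside the members were mostly inside 2-fold. The 3 nearest measured genes on each side of each member gave 15 other genes, of which 9 passed the filter in each pair. In the PC3 pair 0 of 9 were past 2-fold, with a median log2 difference of −0.20, and in the LNCaP pair 1 of 9 was lower, the lipoxygenase gene ALOX15 near CXCL16, at 145 on LNCaP and 32.2 on the LNCaP-AI-labelled array. Between CXCL6 and CXCL5 lie PF4V1, PF4 and PPBP among measured genes; PF4 ranged from 94.2 to 113 and PPBP from 19.2 to 23.1 over the 4 arrays. MED11, next to CXCL16, was 70.9 on PC3-H, 68.0 on PC3-L, 105 on LNCaP and 62.0 on the LNCaP-AI-labelled array.

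NF-kB target genes were lower on PC3-L in 7 of 15 past the filter and higher in 2. Over all genes 3.76% were lower and 8.58% higher. The median of the 15 genes was −0.97 on the log2 scale, against −0.02 over all genes. LCN2, an iron-scavenging defence protein, had an intensity of 1881 on PC3-H and 46.1 on PC3-L. Complement C3 was 19.7-fold lower (40.2 against 810), the adhesion molecule ICAM1 7.21-fold (64.9 against 474) and the calcium-binding S100A9 3.53-fold (67.7 against 242). PTGS2, SAA1 and IER3 were the other 3 lower genes. The apoptosis inhibitors BCL2A1 (261 against 64.2) and BIRC2 (255 against 85.7) were the 2 higher. Against LNCaP, the LNCaP-AI-labelled array had 3 of 14 higher, IER3, BCL2A1 and IRF1, and 0 lower. Shares over all genes were 5.45% higher and 5.13% lower. The median of the 14 was 0.28 against 0.00 over all genes. LCN2, C3 and ICAM1 were at most 64.9 on PC3-L, LNCaP and the LNCaP-AI-labelled array.

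The measured NF-kB subunits stayed inside 2-fold in both pairs. The farthest were RELA in the LNCaP pair (1.92-fold higher) and REL in the PC3 pair (1.62-fold higher). NFKB1 was 218, 282, 236 and 199 on PC3-H, PC3-L, LNCaP and the LNCaP-AI-labelled array, and RELA was 400, 474, 268 and 514. Of 27 listed subunits, kinases and inhibitors 16 were measured. Among these 16, 3 were past 2-fold higher on PC3-L and 1 lower, the inhibitor TNIP1, at 140 against 396. Over all genes 8.58% were higher and 3.76% lower. The kinases TBK1 and MAP3K7 and the adaptor TAB2 were the 3 higher, between 2.12-fold and 2.35-fold, and each was inside 2-fold under at least 1 alternative. In the LNCaP pair MAP3K7 was higher (235 against 110), again inside 2-fold with a pseudocount of 16, and 0 of 16 were lower. All genes gave 5.45% higher and 5.13% lower in that pair.

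Inflammatory inducers and their receptors were lower on PC3-L in 3 of 14 and higher in 1, against 3.76% and 8.58% of all genes. The cytokine IL18 was 8.59-fold lower (20.5 against 184), the adaptor MYD88 of Toll-like and interleukin-1 receptors 2.84-fold (43.6 against 125) and the kinase IRAK2 2.24-fold (66.8 against 151). The co-receptor IL1RAP was 2.10-fold higher and inside 2-fold with a pseudocount of 16 or the length and density trend removed. In the LNCaP pair IRAK1 was higher (277 against 126), 1 of 13, and 0 were lower. All genes gave 5.45% higher and 5.13% lower there. TNF was between 34.7 and 37.5 on the 4 arrays.

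AP-1 and C/EBP factors had 1 of 10 past 2-fold higher on PC3-L, JUN at 407 against 132, and 0 lower. This is near the share of all genes, 8.58% higher and 3.76% lower. The LNCaP pair had 2 of 10 higher and 2 lower, against 5.45% and 5.13% of all genes. FOSL1, an AP-1 subunit, was 1314 on PC3-H, 1002 on PC3-L, 34.8 on LNCaP and 1192 on the LNCaP-AI-labelled array, so LNCaP alone was low. FOSL2 was also higher there (189 against 83.7), and ATF3 (41 against 92.2) and DDIT3 (37.7 against 76.8) were lower, both inside 2-fold with a pseudocount of 16. Of 7 regulators of AU-rich mRNAs, a class that includes CXCL8 mRNA, 2 were lower on PC3-L and 1 higher. Over all genes 3.76% were lower and 8.58% higher. The RNase ZC3H12A was 86.0 against 210, the kinase MAPKAPK2 165 against 380 and TIA1 164 against 78.1; TIA1 was inside 2-fold with a pseudocount of 16 or quantile normalization. Of these 7, 0 were past 2-fold in the LNCaP pair, where 10.6% of all genes were.

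Proteases known to cut or release chemokines, with their inhibitors, were past 2-fold higher at 6 of 10 genes on PC3-L and lower at 0. Over all genes past the filter 8.58% were higher. The 6 include the inhibitor TIMP1 (998 against 378). The median of the 10 genes was 1.24 on the log2 scale. ADAM17 was 3.19-fold higher (456 against 142), and ADAM10 2.11-fold higher (406 against 192), though inside 2-fold with quantile normalization or the length and density trend removed. CXCL16, which both can release, was lower on PC3-L. The collagenase MMP1 was 111-fold higher (3143 against 27.4), the cathepsin CTSB 3.75-fold and the aminopeptidase ANPEP 3.03-fold. In the LNCaP pair 5 of 10 were higher and 0 lower, with MMP1 (1664 against 28.2), ANPEP (1219 against 49.2), MMP14 (508 against 23.2) and the inhibitor TIMP1 (848 against 46.4) in front. There ADAM10 was 374 against 486 and ADAM17 221 against 113, both inside 2-fold.

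**Figure D3:**
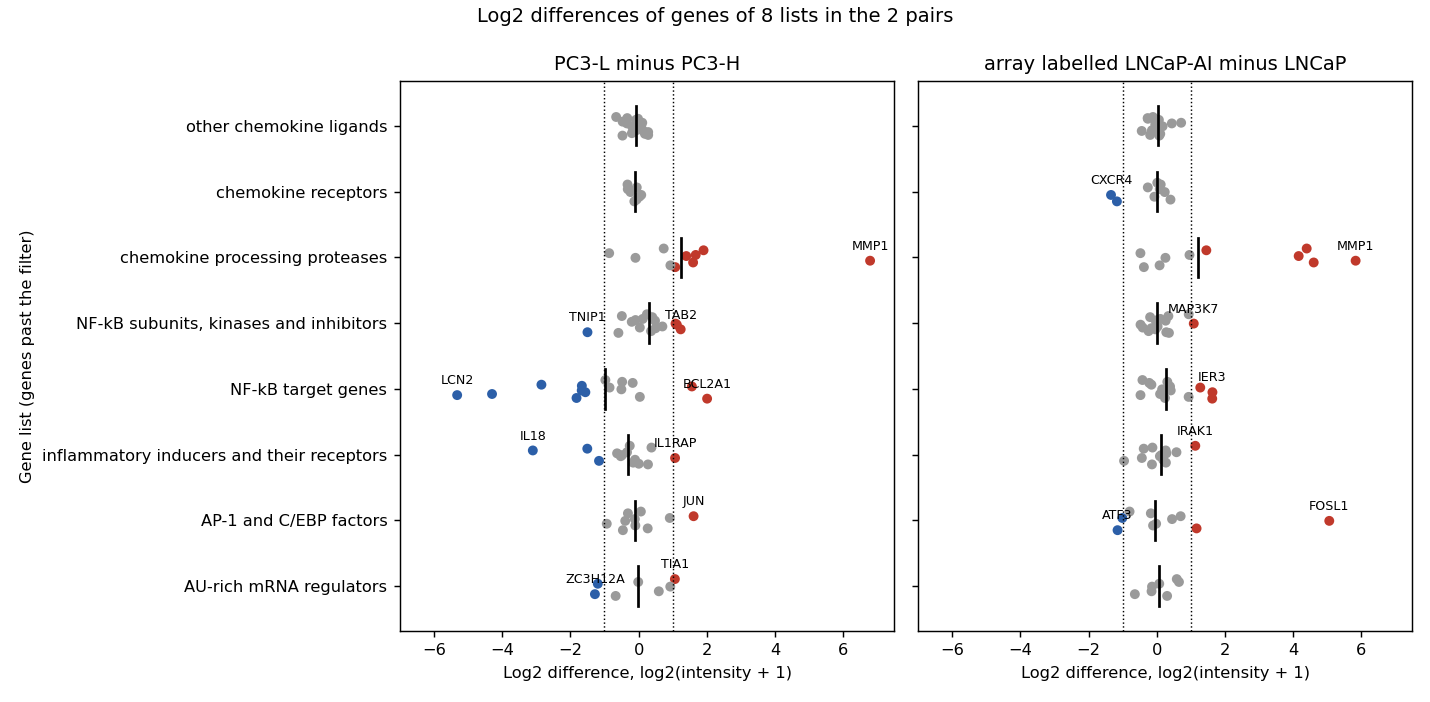
Log2 difference of each gene past the filter (points) in 8 lists, for PC3-L minus PC3-H (left) and the LNCaP-AI-labelled array minus LNCaP (right); black bars are list medians, dotted lines mark 2-fold, and points past it are red (higher) or blue (lower), with the farthest on each side named. NF-kB target genes lie to the left in the PC3 pair (median −0.97) and chemokine-processing proteases to the right in both (medians 1.24 and 1.21).

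For each member, the 5 genes with the most similar pattern were found by the root mean square difference of log2 values over the 4 arrays, each gene centred on its own mean. Nearest to CXCL5 were the Wnt antagonist DKK1 (0.36), the proteoglycan SRGN (0.40), LCN2 (0.48), the non-coding LINC02582 (0.73) and C3 (0.82). All 5 were bright on PC3-H alone; DKK1 was 1054 there and between 23.3 and 25.0 elsewhere. Nearest to CXCL6 were MBOAT1 (0.13), ANTXR1 (0.14), FXYD5 (0.17), FSTL1 (0.17) and the oncostatin M receptor OSMR (0.20), all low on LNCaP alone. OSMR was 200.4 on PC3-H, 331 on PC3-L, 40.9 on LNCaP and 174 on the LNCaP-AI-labelled array.

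The gene nearest to CXCL8 lay farther off than those nearest to the other members. The hypoxia factor EPAS1 (0.56) was followed by LINC-PINT (0.74), the cytokine LIF (0.75), FHOD3 (0.89) and ANXA3 (0.90). LIF was 241 on PC3-H, 214 on PC3-L, 42.0 on LNCaP and 35.9 on the LNCaP-AI-labelled array, so like CXCL8 it was higher on the PC3 arrays than on both others. Nearest to CXCL16 were TMEM45B (0.09), the metalloprotease ADAM15 (0.12), the cathepsin CTSZ (0.12), TMEM205 (0.16) and F8A1 (0.16), whose near-identical copies the probe may not separate. CTSZ was 241 on PC3-H, 45.2 on PC3-L, 129 on LNCaP and 55.6 on the LNCaP-AI-labelled array. No member was among the 5 genes nearest to another. Of 11508 genes, CXCL6 had rank 53 in likeness to CXCL8 (1.20) and CXCL16 rank 95 in likeness to CXCL5 (2.03). In reverse, CXCL8 had rank 8256 in likeness to CXCL6, and CXCL5 rank 11402 in likeness to CXCL16. These pairs are thus not close in both directions. CXCL5 and CXCL6 differed by 2.65; CXCL6 had rank 4196 in likeness to CXCL5, and CXCL5 rank 11489 in likeness to CXCL6.

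**Figure D4:**
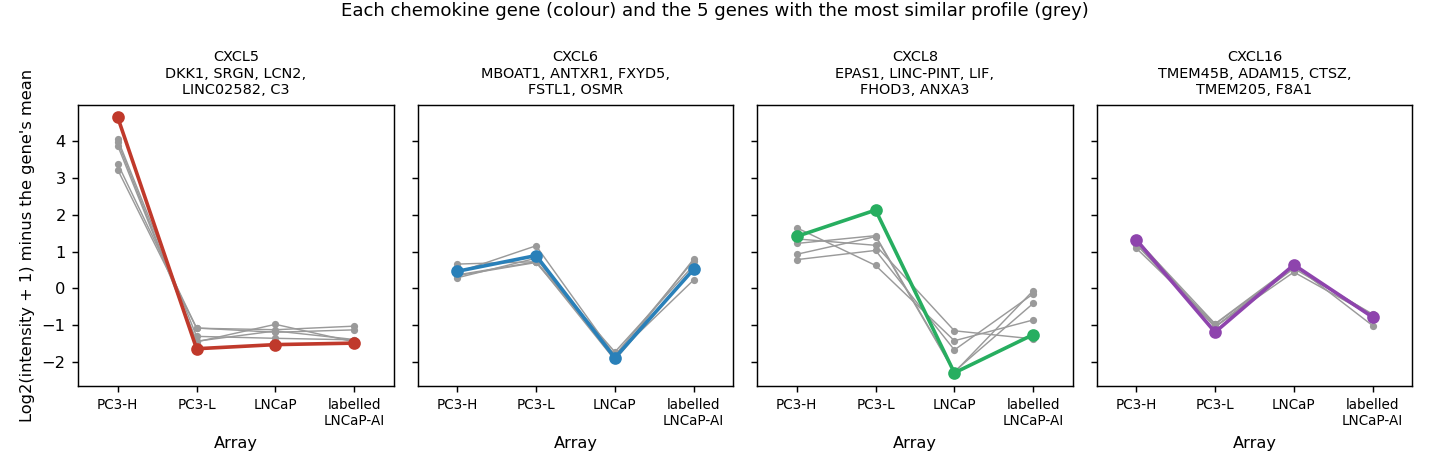
Profiles over the 4 arrays of each member (colour) and of the 5 most similar genes (grey), as log2(intensity + 1) minus the gene's own mean. CXCL5 and its 5 genes peak on PC3-H, CXCL6 and its 5 dip on LNCaP, the CXCL8 group is spread more widely, and the CXCL16 group is high on PC3-H and LNCaP.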

How the data were processed

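Expression was measured on 4 whole-transcript arrays, 1 per culture. The values deposited by the authors are linear intensity values, judged from their range of 17.6 to 11188, with array medians between 39.8 and 41.2. Per the labels, RNA was taken with ISOGEN II and biotinylated with the WT Terminal Labeling Kit. The series' design text names GeneSpring GX 12.6, a 2-fold threshold and a false discovery rate of 10%. Summarisation, background correction and normalization are not given in the sources used here, and neither is a filter; each probe reached at least 21.9 on some array.

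Of 37934 probes 14952 had 1 gene symbol in the platform annotation. The other 22982, with no symbol or several, were left out. A gene called not measured may thus still have a probe that it shares with other symbols. All 14952 matched the RefSeq gene table by Entrez identifier. They cover 14006 genes, of which 583 had several probes, and the probe with the highest mean was used. Log2(intensity + 1) differences were computed per pair for genes at or above the 40th percentile of all probes on at least 1 of both arrays. Folds are on that scale and understate changes of dim genes. A gene at or past 2-fold was counted, with no p-value, since array number limits the precision. Low against high label was fitted with limma 3.58.1 in R 4.3.3, two-sided, with Benjamini-Hochberg adjustment over all genes past the filter. Both steps were tested on simulated data. The members and lists were chosen with earlier results of these data known. Named genes are the members, their 5 most similar genes, up to 4 genes past 2-fold per list and pair, the receptors CXCR1, CXCR2 and CXCR6, the proteases ADAM10 and ADAM17, 3 neighbours on each side, and line markers; CD68, S100A9, S100A12, FCN1, EPCAM, NFKB1, RELA, TNF, PTGS2, SAA1 and BIRC2 and levels of CXCL2 and CXCL3 were added after their values were seen. Gene order came from GRCh38.p14; promoter windows held 250 bases. Alternatives changed the pseudocount, filter, scaling, probe rule, gene length and density trend, covariate or PC3 assignment.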

Additional observations from a re-analysis of the deposited data

Results flagged for a closer look

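The differences of CXCL5 in the 2 pairs had opposite signs: −6.28 in PC3-L against PC3-H and 0.04 in the LNCaP-AI-labelled array against LNCaP, a gap of −6.32 on the log2 scale. The second value rests on intensities of 34.2 and 33.2, both below the filter. IER3, a stress-induced NF-kB target, was lower by 1.56 on the log2 scale in the PC3 pair (log2 difference −1.56) and higher by 1.63 in the LNCaP pair, a gap of −3.19; its intensity was 1589 on PC3-H, 538 on PC3-L, 107 on LNCaP and 333 on the LNCaP-AI-labelled array. With 1 array per group neither difference between the pairs was tested.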

How the results depend on the processing

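No paired analysis by replicate number was possible because each group had 1 array; the limma fit took the labelled cell line as its block. The count of genes past 2-fold stayed within 1.5 times under the alternatives run, between 1000 and 1422 in the PC3 pair (1374 in the report) and between 906 and 1201 in the LNCaP pair (1178), and limma called 0 genes under its 7 alternatives. With the PC3 labels exchanged, as the descriptions have them, CXCL5 and CXCL16 reversed to log2 differences of 6.28 and 2.51 in that pair and to 3.16 and 0.54 in limma over both lines. Without that exchange, the PC3 pair gave CXCL5 −6.32 to −5.73, CXCL16 −2.54 to −2.17, CXCL6 0.27 to 0.51 and CXCL8 0.62 to 0.77. The LNCaP pair gave CXCL6 1.95 to 2.45, CXCL16 −1.44 to −1.22 and CXCL8 0.71 to 1.07; the lowest CXCL8 value came with a pseudocount of 16 and CXCL8 did not pass a filter at the 60th percentile. Of the genes of all lists past 2-fold, 37 for PC3 and 31 for LNCaP, all kept their direction under the 8 alternatives of scaling, filter, pseudocount, probe rule and trend. Without the LNCaP-AI-labelled array no residual degree of freedom is left for limma. Signal near the floor limits CXCL5, CXCL6 and CXCL8 on LNCaP.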
